A study of Mus musculus with 8 samples.

Results

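The Wnt ligands are secreted signalling proteins. The 10 ligand genes described here are Wnt2, Wnt2b, Wnt3, Wnt4, Wnt5a, Wnt5b, Wnt6, Wnt10a, Wnt10b and Wnt11. They were listed by name, but with earlier results of these data known. They were read by 13 of the 41174 probes of the array, namely every probe whose gene name in the scanner files was one of these symbols. Wnt3, Wnt5b and Wnt6 had 2 probes each and the other members 1 each. Of the 10 genes, 8 passed the filter on dim probes and entered a fit over 21637 genes. Wnt2b and Wnt10b did not.

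The study profiled 4 tumors and 4 normal samples of the colon, all from adult C57BL/6 mice, on 1-colour Agilent arrays, each sample on its own array. The tumors, labelled colon adenoma, had the genotype Tcf4Het ApcHet, and the normals had the genotype TCF4WT ApcHet. All 8 samples therefore carried a mutant copy of Apc, whose product holds together the complex that degrades beta-catenin, and the protocol gives the allele as ApcMin, a germline mutation present in every cell of the mouse. Tcf4 is an older name of Tcf7l2, which encodes a DNA-binding partner of beta-catenin. RNA came, by the protocol, from the last 2.5 cm of the distal colon of littermates of either Tcf4 genotype. Tumor state and Tcf4 genotype cannot be told apart. In whole tissue, more cells of a type and more RNA per cell cannot be told apart either.

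Wnt proteins are made with a lipid attached by Porcn and are carried to the cell surface by Wls. Outside the cell they bind Frizzled receptors, together with Lrp5 or Lrp6 where the signal stabilises beta-catenin, or with Ror and Ryk receptors where it acts on cell shape and polarity. In the intestine, ligands made by stromal cells beneath the crypts and, in the small intestine, by Paneth cells maintain the stem cells. Loss of Apc activates beta-catenin downstream of the ligands and receptors.

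Values are on the log2 scale of the authors' value table, which was quantile-normalised, so that each sample had a median of 8.51. A value of 5.59 was taken as the detection limit, below which probes were mostly not above background. Differences are tumor minus normal. Levels carry the SD of n = 4 samples a group, and differences carry the standard error of the fit. Adjusted p-values come from limma over all genes in the fit, and a gene is said to have risen or fallen where its adjusted p was below 0.05. Levels of different probes are not comparable on an array, so no ligand is ranked against another by level. The labels number the samples of a group without saying for each that it came from a mouse of its own, so p-values measure the spread between these samples.

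The sample labelled normal 3 lay closer to the tumors than to the other normals. Over all genes in the fit its Pearson correlation, across genes of 1 sample pair at a time, was 0.947 to 0.965 with tumors, whereas with normals 1, 2 and 4 it was 0.872 to 0.941. The differences below are therefore given with all 4 normals and, for the ligands in the fit and the other genes described by value, also without normal 3. Leaving that sample out raised the share of all genes called to 51.5%, so calls made without it are read against that share. The other normals were not uniform either. Normal 1 correlated at 0.925 to 0.956 with tumors and at 0.940 and 0.938 with normals 2 and 4. Normals 2 and 4 correlated at 0.987 with each other. Sample identity was also uncertain in the deposited files. Of the 8 columns of the value table, 4 matched a scanner file exactly, but for only 1 was it the file deposited under the same sample, while 4 columns and 4 files had no partner. Samples are taken here from the labels of the columns. By marker lists, the mean log2 level of 10 distal colon genes was 12.25 to 13.34 in tumors and 13.57 to 13.93 in normals, with 6 of the 10 lower in tumors (3 with samples of the same number as a block). Over all genes 7.54% were called lower, and 8.69% were called in either direction with the block. That of 11 small intestine genes was 8.09 to 9.89 in tumors and 8.57 to 10.81 in normals.

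**Figure D1:**
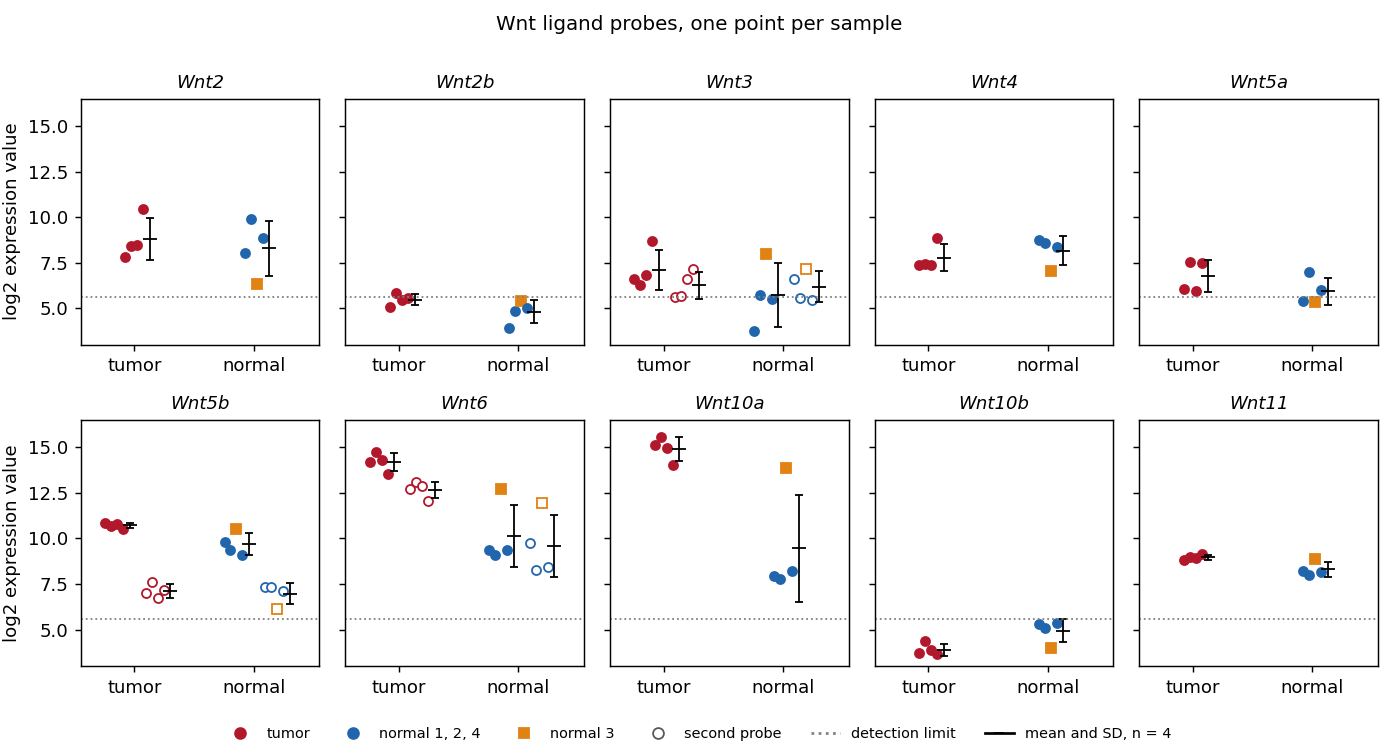
Log2 expression value (vertical axis) of every probe of the 10 Wnt ligands in 4 tumors and 4 normals, with 1 point per sample, mean and SD in black, open symbols for second probes, an orange square for normal 3 and a dotted line at the detection limit of 5.59. Wnt10a and Wnt6 lay above every normal in all 4 tumors, and in both genes normal 3 lay closer to the tumors than to normals 1, 2 and 4.

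Wnt10a and Wnt6 were the ligands that rose in tumors, by 44.1-fold and 16.9-fold in the means of the value table. In the scanner files, read under the samples they were deposited with, the log2 differences were 0.80 and 0.51 and neither was called (adjusted p = 0.9996 for both). No ligand fell, and the other 6 ligands in the fit did not pass the threshold. Wnt10a and Wnt6 are neighbours on chromosome 1, with 0 protein-coding genes between them in the gene order of GRCm38.p6. The 2 of 8 ligands called compare with 14.5% of all genes called in either direction and with 7.00% called higher and 7.54% called lower. Of 7 other Wnt genes in the fit, described below, 0 were called. Among the ligands 4 had an unadjusted p under 0.05 in limma, 0 of them lower in tumors, against 32.4% of all genes in either direction. The median difference was 0.93 over the 8 ligands in the fit and 0.15 over all genes. With samples of the same number as a block, 1 of 8 ligands was called, against 8.69% of all genes. Over all genes, 1515 were higher and 1632 lower in tumors, and 1073 were higher and 2016 lower once each sample was centred on the median of its genes. Under that centring Wnt10a and Wnt6 were still the 2 ligands called.

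Wnt10a encodes a ligand of the beta-catenin branch that is best known for the development of teeth, hair and sweat glands. Its probe, on chromosome 1 at 74737266 to 74737325 (mm8, plus strand), read 15.12, 15.56, 14.96 and 14.03 in tumors 1 to 4, against 7.94, 7.79, 13.86 and 8.23 in normals 1 to 4. All 4 tumors lay above all 4 normals, but the lowest tumor, tumor 4, lay 0.18 above normal 3, while normals 1, 2 and 4 were within 0.44 of each other. The mean was 14.92 ± 0.64 in tumors and 9.46 ± 2.94 in normals. The difference was 5.46 ± 1.34 (95% interval 2.36 to 8.56, adjusted p = 0.0367), which ranked 8 among 21637 genes. Without normal 3 it was 6.93 ± 0.35 (adjusted p = 0.000179), or 122-fold. Normal 3 itself was 5.87 above the mean of the other normals and 1.06 below the mean of the tumors. In normals 1 and 2, the normals whose scanner files could be identified, the spot was well above background, although in normal 1 dim probes reached 7.70 at their 95th percentile, close to its value of 7.94.

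The Wnt10a call was kept without normal 3 and lost without any other single sample. With the numbered pairs as a block its adjusted p was 0.057. It was 0.0911, 0.102, 0.0993 and 0.0642 without tumors 1 to 4, and 0.0928, 0.0936 and 0.100 without normals 1, 2 and 4. The difference itself kept its sign and stayed between 4.91 and 6.93 whichever sample was left out.

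Wnt6 encodes a ligand of the ectoderm that acts in the epithelialisation of somites in the chick embryo. Its brighter probe lies at 74718094 to 74718153 of chromosome 1 (mm8, plus strand) and its second probe just before it, at 74717994 to 74718059. The brighter probe read 14.18, 14.77, 14.32 and 13.56 in tumors 1 to 4, against 9.38, 9.08, 12.69 and 9.37 in normals 1 to 4. The groups did not overlap, and as for Wnt10a the highest normal was normal 3 and the lowest tumor was tumor 4. The mean was 14.21 ± 0.50 in tumors and 10.13 ± 1.72 in normals. The difference was 4.08 ± 0.80 (95% interval 2.23 to 5.93, adjusted p = 0.0221, and 0.0444 with the pairs as a block). Without normal 3 it was 4.94 ± 0.28 (adjusted p = 0.000218), or 30.6-fold.

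The second Wnt6 probe moved the same way. It read 12.69, 13.07, 12.88 and 12.08 in tumors, against 9.73, 8.26, 11.93 and 8.42 in normals. The groups were apart again, by 0.14 between tumor 4 and normal 3. Its difference was 3.09 ± 0.78, with an adjusted p of 0.0408 when every kept probe was fitted on its own, a fit in which 13.4% of probes were called. Without normal 3 it was 3.88 (adjusted p = 0.00155). The call for Wnt6 was lost without tumors 1, 2 and 3 (adjusted p = 0.0594, 0.0688 and 0.0721) and without normals 1, 2 and 4 (adjusted p = 0.0634, 0.0602 and 0.0674).

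To show what lies before the start of Wnt6, the 250 bases upstream of it are given (RefSeq, GRCm38.p6, chr1:74771642-74771891, plus strand). They were searched on both strands for CTTTG followed by AA, AT, TA or TT, short matches to the sequence that TCF and LEF factors bind. Capitals would mark a match, and this window holds none; 79.6% of its bases are G or C.
Wnt6: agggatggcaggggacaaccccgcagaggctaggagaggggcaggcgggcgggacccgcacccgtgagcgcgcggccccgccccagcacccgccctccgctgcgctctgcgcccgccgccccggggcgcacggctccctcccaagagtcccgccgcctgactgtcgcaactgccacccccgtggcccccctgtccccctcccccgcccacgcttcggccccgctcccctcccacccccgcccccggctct
Promoter windows were matched by symbol for 8 of the 10 ligands, 11 windows in all. The set searched held no window for Wnt5a or Wnt10a. Of the 11 windows, 2 held one of the letter strings, against 14.8% of 32851 windows of the same length. The 2 belong to Wnt5b and Wnt11 and are shown with those genes.

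**Figure D2:**
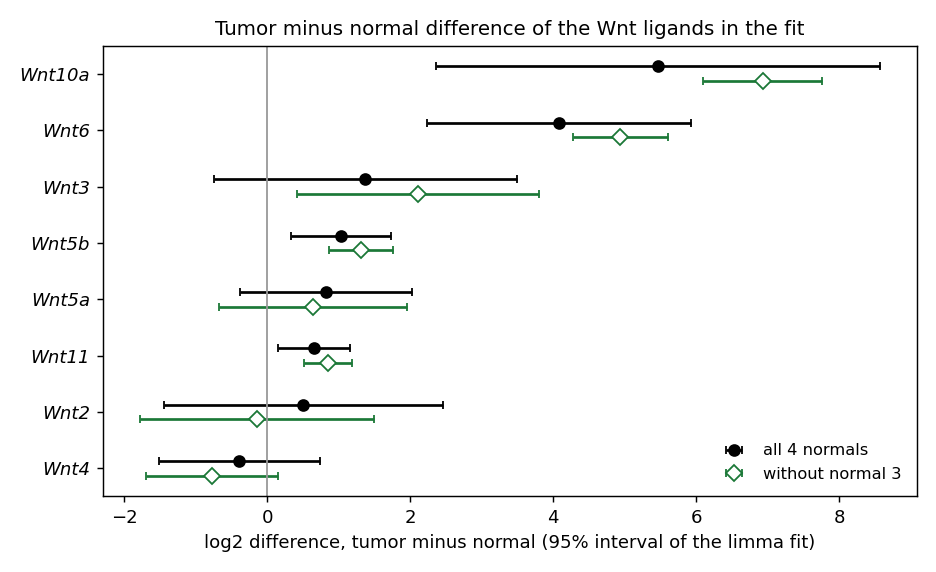
Log2 difference, tumor minus normal (horizontal axis), of the 8 Wnt ligands in the fit, with 95% intervals of the limma fit, from all 4 normals (filled circles) and without normal 3 (open diamonds). With all normals the intervals of Wnt10a (2.36 to 8.56) and Wnt6 (2.23 to 5.93) lay farthest from 0, and without normal 3 they narrowed.

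Marker levels of several other cell types also differed between the groups. Counts of marker genes called are read against 14.5% of all genes, or 8.69% with the block. The mean log2 level of 9 neutrophil genes was 11.68 to 13.06 in tumors and 6.85 to 10.17 in normals, and all 9 rose (8 with the block). For 10 macrophage genes it was 11.88 to 12.02 in tumors and 9.85 to 11.24 in normals, and 6 rose (6 with the block). For 8 genes of telocytes and trophocytes, stromal cells beneath the crypt epithelium, it was 12.54 to 12.62 in tumors and 11.03 to 11.98 in normals, and 2 rose (2 with the block). For 7 endothelial genes it was 10.59 to 10.98 in tumors and 9.68 to 10.33 in normals, and 2 rose (1 with the block). For 10 epithelial genes it was 15.82 to 16.17 in tumors and 16.41 to 16.78 in normals, and 3 fell (0 with the block). Normal 3 had the highest neutrophil level of the normals (10.17) and the lowest macrophage level (9.85). Squamous epithelium, which borders the distal colon at the anus, was represented by 14 genes, of which 0 were called by limma with all normals. By the same test 7 had an unadjusted p under 0.05, some higher and some lower in tumors, against 32.4% of all genes. Their mean level was 9.55 to 10.63 in tumors and 8.63 to 11.40 in normals, again with normal 3 highest. Without normal 3, 4 of the squamous genes were higher and 1 lower, against 31.7% and 19.8% of all genes. The part of these cell types in the ligand differences was not tested.

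Wnt3, Wnt2, Wnt4, Wnt2b and Wnt10b are further ligands studied mainly for beta-catenin signalling or for organ formation. The first of these, Wnt3, and Wnt2 and Wnt4 did not pass the threshold with all normals, and Wnt2b and Wnt10b were too dim to enter the fit. Wnt3, a ligand of Paneth cells and of the gastrulating embryo, was read by 2 probes on chromosome 11. The brighter, at 103632185 to 103632244 (mm8, plus strand), read 6.58, 6.27, 6.83 and 8.69 in tumors, against 3.72, 5.73, 7.95 and 5.50 in normals. Normal 3 was above 3 of the 4 tumors, and the other 3 normals were below all tumors. The difference was 1.37 ± 0.91 (95% interval -0.75 to 3.49, adjusted p = 0.278) and, without normal 3, 2.11 ± 0.71 (adjusted p = 0.0436). Normals 1 and 4 were below the detection limit, and in normal 2 (5.73) the spot was not marked well above background. The size of that difference thus depends on dim values. The second probe, at 103633814 to 103633873, gave no such difference. It read 5.59, 5.67, 6.58 and 7.15 in tumors, against 6.59, 5.53, 7.16 and 5.42 in normals, a difference of 0.07 ± 0.51 (adjusted p = 0.919 in the fit of single probes, and 0.494 without normal 3). On the second probe normals 2 and 4 were below the detection limit, and tumors 1 and 2 were barely above it. Its spots in normals 1 and 2 were not marked well above background. The Wnt3 probes thus disagreed, with dim values in both.

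Paneth cell genes were among the lists set beside Wnt3. The mean level of 7 such genes was 15.11 to 16.07 in tumors and 12.52 to 14.82 in normals, with normal 3 the highest of the normals, and 1 of the 7, the metalloproteinase Mmp7, rose (named because the count was 1; adjusted p = 0.0441, and 0.0555 with the block). Of all genes, 7.00% were called higher. The part of Paneth cells in the Wnt3 values was not tested.

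Wnt2, a ligand made by mesenchyme that acts in lung and placenta, overlapped between the groups. Its probe, on chromosome 6 at 17939284 to 17939343 (mm8, minus strand), read 7.83, 8.39, 8.49 and 10.44 in tumors, against 8.05, 9.89, 6.33 and 8.88 in normals. Tumor 4 was highest and normal 3 lowest. The difference was 0.50 ± 0.84 (95% interval -1.45 to 2.46, adjusted p = 0.657), and it changed sign to -0.15 ± 0.69 without normal 3 (adjusted p = 0.868) and to -0.05 without tumor 4. Fibroblast genes showed a similar spread: the mean level of 11 such genes was 13.10, 13.23, 13.14 and 14.10 in tumors and 12.56, 13.93, 11.45 and 13.34 in normals, so that Wnt2 was highest in the same tumor and, among the normals, highest and lowest in the same samples. Means of 9 smooth muscle genes and of 7 endothelial genes were likewise highest in tumor 4 among the tumors. Among the normals both were highest in normal 2 and lowest in normal 3. Of the 11 fibroblast genes 1 rose, the surface glycoprotein gene Thy1, where 7.00% of all genes were called higher. The part of any of these cell types in Wnt2 was not tested.

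Wnt4, which acts in kidney and ovary formation, had a probe on chromosome 4 whose mm8 interval, 136567851 to 136568419, spans more bases than a probe holds. It read 7.40, 7.44, 7.36 and 8.87 in tumors, against 8.72, 8.55, 7.01 and 8.36 in normals. Tumors 1, 2 and 3 lay below normals 1, 2 and 4, with tumor 4 above all normals and normal 3 below all tumors. The difference was -0.40 ± 0.48 (95% interval -1.52 to 0.73, adjusted p = 0.541) and, without normal 3, -0.78 ± 0.39 (adjusted p = 0.132). It was the only ligand in the fit with a negative difference.

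Wnt2b, a close relative of Wnt2 made by stromal cells, was near or below the detection limit. Its probe (chromosome 3, 105073969 to 105074028, mm8, minus strand) read 5.08, 5.84, 5.44 and 5.54 in tumors, against 3.93, 4.87, 5.40 and 5.02 in normals. Tumor 2 was the one sample above the limit, and no fold is given. Wnt10b, known for keeping mesenchymal cells from becoming fat cells, was below the limit in every sample. Its probe (chromosome 15, 98600121 to 98600180, mm8, minus strand) read 3.69, 4.38, 3.87 and 3.66 in tumors, against 5.29, 5.07, 3.99 and 5.36 in normals, and no difference is given for it.

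Wnt5a, Wnt5b and Wnt11 signal mainly without beta-catenin, through cell polarity and calcium. None of them passed the threshold with all 4 normals, but Wnt5b came closest, and all 3 had positive differences. Wnt5b was read by 2 probes on chromosome 6. The brighter, at 119398613 to 119398672 (mm8, minus strand), read 10.84, 10.68, 10.82 and 10.54 in tumors, against 9.78, 9.36, 10.53 and 9.10 in normals. The groups did not overlap, although tumor 4 was 0.02 above normal 3. The difference was 1.03 ± 0.30 (95% interval 0.33 to 1.73, adjusted p = 0.0585), 2.04-fold. It passed the threshold without normal 3, at 1.31 ± 0.19 (adjusted p = 0.00441), with an intensity trend in the variance (adjusted p = 0.0449) and with the mean of both probes (0.59, adjusted p = 0.0472). The second probe, at 119405921 to 119405980, read 6.99, 7.62, 6.72 and 7.16 in tumors, against 7.33, 7.34, 6.12 and 7.10 in normals. These groups overlapped, with a difference of 0.15 ± 0.32 (adjusted p = 0.739 in the fit of single probes), which turned to -0.13 without normal 3 (adjusted p = 0.635). As with Wnt3, the probes disagreed in the size of the difference.

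Wnt11, a ligand of convergent extension movements in fish and frog embryos, had a probe on chromosome 7 at 98728667 to 98728727 (mm8, plus strand). It read 8.81, 8.99, 8.91 and 9.15 in tumors, against 8.22, 7.98, 8.89 and 8.15 in normals. Normal 3 lay above tumor 1, and the other normals lay below all tumors. The difference was small and its spread narrow, at 0.65 ± 0.21 (95% interval 0.15 to 1.15, adjusted p = 0.0816) and, without normal 3, 0.85 ± 0.14 (adjusted p = 0.00623).

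Wnt5a, which directs gut elongation in the mouse embryo, had a probe on chromosome 14 with an mm8 interval of 27345426 to 27349388. It read 6.08, 7.51, 5.94 and 7.50 in tumors, against 5.38, 6.97, 5.36 and 6.01 in normals. Tumors 2 and 4 were highest, tumors 1 and 3 lay among the normals, and normals 1 and 3 were below the detection limit. The difference was 0.83 ± 0.52 (95% interval -0.38 to 2.03, adjusted p = 0.254) and, without normal 3, 0.64 ± 0.55 (adjusted p = 0.359).

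The windows of Wnt5b and Wnt11 that hold a searched letter string are given, with the match in capitals. That of Wnt5b (RefSeq, GRCm38.p6, chr6:119449387-119449636, minus strand) is 1 of 3 windows of the gene and holds CTTTGAT, beginning 71 bases before the start. That of Wnt11 (chr7:98834862-98835111, plus strand) is 1 of 2 and holds the reverse complement of CTTTGAT, beginning 51 bases before the start.
Wnt5b: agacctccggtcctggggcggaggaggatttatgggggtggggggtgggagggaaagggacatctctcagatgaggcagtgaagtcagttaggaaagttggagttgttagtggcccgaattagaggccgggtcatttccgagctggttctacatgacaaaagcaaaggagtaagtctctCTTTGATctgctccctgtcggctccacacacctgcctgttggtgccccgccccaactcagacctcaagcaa
Wnt11: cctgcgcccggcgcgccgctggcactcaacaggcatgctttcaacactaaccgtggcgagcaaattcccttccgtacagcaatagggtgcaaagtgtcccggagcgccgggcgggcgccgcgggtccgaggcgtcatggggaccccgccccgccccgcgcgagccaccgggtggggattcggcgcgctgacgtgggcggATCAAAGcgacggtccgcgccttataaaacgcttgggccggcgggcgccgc
A match of letters is a description and not evidence of binding.

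**Figure D3:**
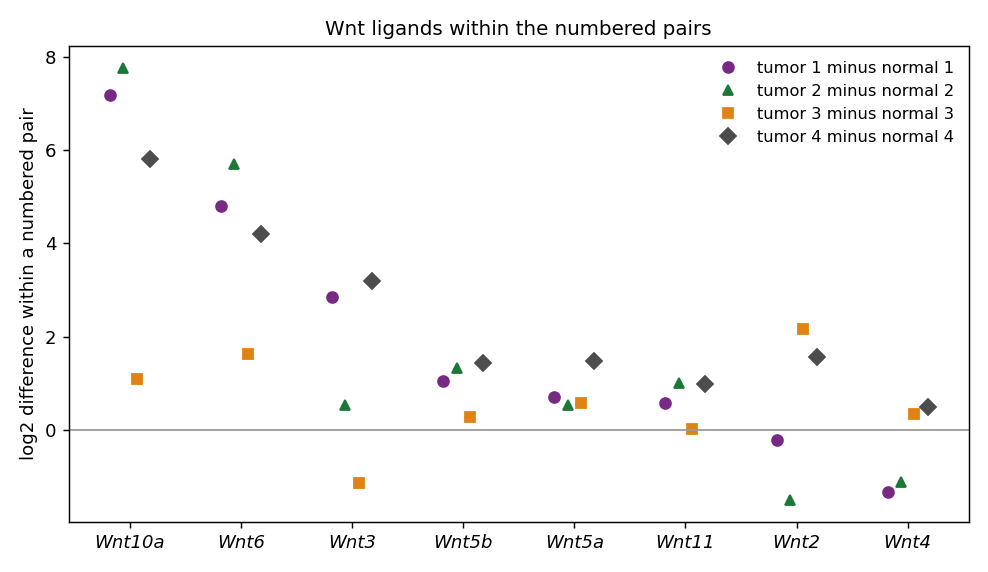
Log2 difference (vertical axis) of the 8 Wnt ligands in the fit within each numbered pair, tumor minus the normal of the same number. In the pair with normal 3 (squares) the difference of Wnt10a was 1.11, against 5.80 to 7.76 in the other pairs.

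Within the numbered pairs, Wnt10a was higher in the tumor by 7.18, 7.76, 1.11 and 5.80 in pairs 1 to 4, and Wnt6 by 4.81, 5.69, 1.63 and 4.20. The pairs of tumor 1 with normal 1 and of tumor 2 with normal 2 each lay on 1 slide, as far as their scanner files could be identified, so the differences of these ligands were present within each slide. Wnt5b, Wnt5a and Wnt11 were also higher in the tumor of all 4 pairs, by 0.29 to 1.44, 0.54 to 1.49 and 0.02 to 1.01. Wnt3 was lower in the tumor of pair 3, by 1.12 on the log2 scale, and higher in the other pairs. Wnt2 and Wnt4 were lower in the tumors of pairs 1 and 2 and higher in those of pairs 3 and 4.

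Over the 8 ligands in the fit, the groups were apart for 3, all higher in tumors (Wnt10a, Wnt6 and Wnt5b), against 11.9% of all genes higher and 23.8% of all genes in either direction. Without normal 3 they were apart for 5, with Wnt3 and Wnt11 added, against 33.3% of all genes apart and higher in tumors without that sample. The same 5 were called, against 31.7% of all genes called higher and 19.8% called lower without that sample.

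The array also held 9 other Wnt genes. Of the 7 that entered the fit, 0 were called by limma with all normals, although 2 had an unadjusted p under 0.05, as did 32.4% of all genes, and 5 had positive differences. Those 5 were Wnt16, Wnt7a, Wnt9b, Wnt1 and Wnt7b, at 1.96 ± 0.70, 1.96 ± 0.66, 1.30 ± 0.71, 1.20 ± 0.66 and 0.91 ± 0.44 (adjusted p = 0.102, 0.0875, 0.211, 0.215 and 0.186). Without normal 3 these 5 were at 2.74, 2.51, 1.90, 1.79 and 1.31 and all were called (adjusted p = 0.000191, 0.0112, 0.0241, 0.0200 and 0.0154), against 51.5% of all genes. Wnt16, a ligand known for its effect on bone thickness, read 7.82, 8.11, 7.86 and 7.98 in tumors, against 5.07, 5.42, 8.33 and 5.11 in normals. Normal 3 was above every tumor, and the other normals were below the detection limit. For Wnt7a, normals 2 and 4 (4.59 and 5.45) were below that limit. In normal 1 (6.76) its spot was not marked well above background. The sizes of the Wnt16 and Wnt7a differences thus depend on dim values. Wnt7a and Wnt7b, ligands with roles in the nervous system and its vessels, and Wnt1 and Wnt9b, with roles in the midbrain and the kidney, had normal 3 within or above the range of the tumors as well. In these genes normal 1 lay above normals 2 and 4. Genes outside the Wnt family read alike, such as the glial gene Sox10, at 9.30, 8.15, 10.24 and 8.34 in normals 1 to 4. In Wnt10a normal 1 (7.94) lay below normal 4 (8.23). By the brighter Wnt6 probe normal 1 (9.38) lay above normal 2 (9.08) and barely above normal 4 (9.37). By the second Wnt6 probe it lay above both, at 9.73 against 8.26 and 8.42. Wnt9a and Wnt8b were at -0.19 ± 0.38 and -0.35 ± 0.25 (adjusted p = 0.718 and 0.300), and at -0.46 and -0.27 without normal 3. Wnt9a has a second probe that read 6.33, 5.65, 6.17 and 5.82 in tumors and 4.92, 3.65, 6.44 and 3.75 in normals, so its probes differed in sign. On that second probe normals 1, 2 and 4 were below the detection limit, so the sign rests on dim values.

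**Figure D4:**
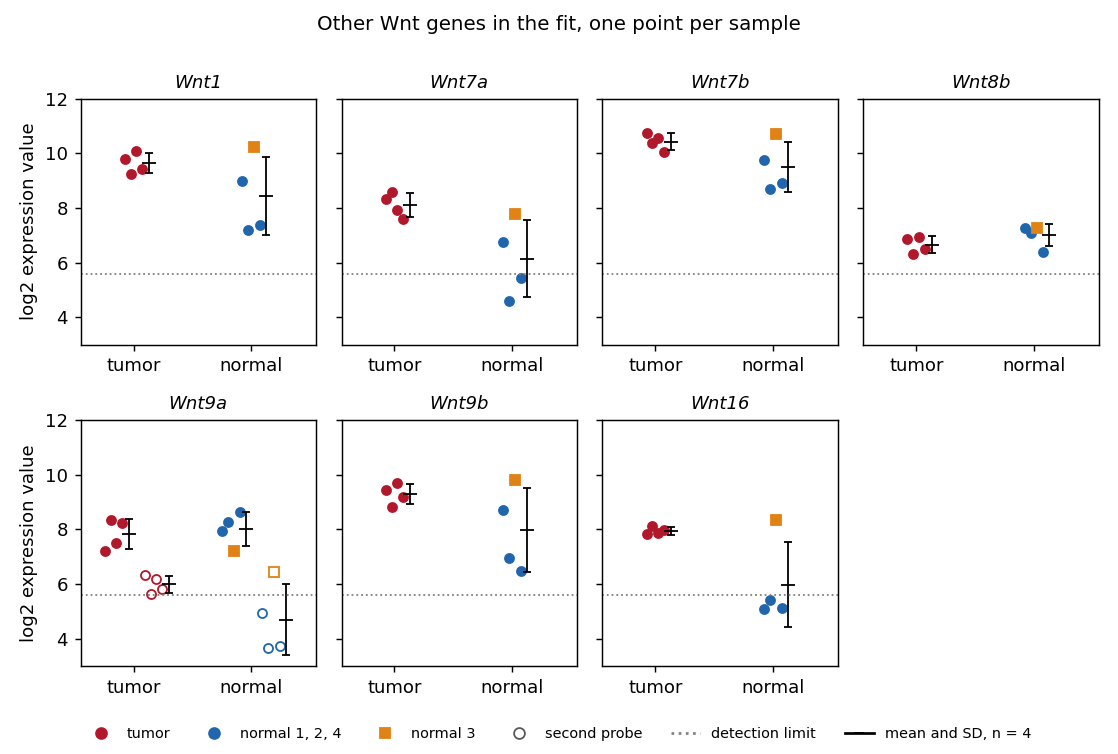
Log2 expression value (vertical axis) of the 7 other Wnt genes in the fit, in 4 tumors and 4 normals, with 1 point per sample, mean and SD in black, open symbols for a second probe and an orange square for normal 3. In Wnt1, Wnt7b, Wnt9b and Wnt16 normal 3 lay at or above the tumors' mean, while in Wnt9a it was the lowest normal by the brighter probe and the highest by the second.

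Several Wnt genes lie side by side in the genome, which allows neighbours to be read together. Beside Wnt6 and Wnt10a, the gene order of GRCm38.p6 has Wnt9b next to Wnt3 and Wnt3a next to Wnt9a on chromosome 11, and Wnt10b next to Wnt1 on chromosome 15, each with 0 protein-coding genes between. Wnt9b and Wnt3 had similar differences, 1.30 and 1.37 with all normals and 1.90 and 2.11 without normal 3, but this holds for the brighter Wnt3 probe alone, since the second gave 0.07 and 0.40. Their samples were also ordered differently. Wnt3 was highest in tumor 4 (8.69) and lowest in normal 1 (3.72), and Wnt9b was highest in normal 3 (9.80) and lowest in normal 4 (6.48). Wnt1 was above the detection limit in all 8 samples (9.24 to 10.09 in tumors and 7.19 to 10.22 in normals), whereas Wnt10b was below it in all 8. Wnt9a was above the limit in all 8 samples by its brighter probe, whereas Wnt3a exceeded it in 1 tumor and 1 normal. That normal was normal 1 (6.20), where the Wnt3a spot was not marked well above background.

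The rest of the pathway was described by role. Counts in every list below are read against the share of all genes called. That share was 14.5%, or 8.69% with the block and 51.5% without normal 3. Of 10 genes of ligand secretion and removal, 1 rose, Notum, the secreted enzyme that strips the lipid from Wnt proteins. It read 11.63, 12.21, 11.50 and 11.10 in tumors, against 6.79, 5.56, 10.88 and 5.17 in normals, with the groups 0.22 apart at tumor 4 and normal 3. Its difference was 4.51 ± 1.18 (adjusted p = 0.0438, and 0.0638 with the pairs as a block, so that 0 of the list were called then). Without normal 3 it was 5.77 ± 0.43, and 1 gene of the list was higher and 2 were lower. Porcn and Wls, needed for the release of every ligand, were at 0.09 and -0.27 (adjusted p = 0.795 and 0.193), and at 0.31 and -0.33 without normal 3.

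Of 17 receptor genes, 1 rose and 3 fell (0 and 3 with the block, 4 and 5 without normal 3). Among all genes 14.5% were called, 8.69% with the block and 51.5% without normal 3. The receptor gene Fzd10 rose by 3.05 ± 0.79 (adjusted p = 0.0434, and 0.0569 with the block), with 11.03, 11.92, 11.43 and 10.63 in tumors and 7.26, 7.41, 10.74 and 7.43 in normals. Fzd5, a Frizzled of the crypt epithelium, fell by 1.53 ± 0.22, the co-receptor gene Lrp6 by 1.44 ± 0.32 and Fzd8 by 1.28 ± 0.28 (adjusted p = 0.0149, 0.0288 and 0.0284). In these 3 genes every tumor was below every normal, normal 3 included. Normal 3 had 10.30, 9.76 and 8.12 of Fzd5, Lrp6 and Fzd8, below the other normals in each. Without normal 3 the differences of Fzd10, Fzd5, Lrp6 and Fzd8 were 3.89, -1.64, -1.73 and -1.56.

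Of 12 inhibitors on a list named for secreted ones, 4 rose and 0 fell (2 and 0 with the block, 6 and 0 without normal 3). The shares of all genes called were 14.5%, 8.69% and 51.5% in the same order. Dkk3 rose by 1.81 ± 0.26 (adjusted p = 0.0149), Wif1, which binds Wnt proteins directly, by 5.18 ± 1.12 (adjusted p = 0.027) and Dkk2, which binds the Lrp co-receptors, by 4.12 ± 0.98 (adjusted p = 0.0341, and 0.0594 with the block). The fourth was Apcdd1, whose product is a membrane protein and not a secreted one, named because the count was 4, at 4.54 ± 1.08 (adjusted p = 0.0343, and 0.0557 with the block). Apcdd1 read 16.66, 17.27, 16.60 and 15.76 in tumors, against 10.59, 10.88, 15.56 and 11.10 in normals, with tumor 4 lowest among the tumors and normal 3 highest among the normals as for Wnt10a. Without normal 3 Dkk3, Wif1, Dkk2 and Apcdd1 were at 1.94, 6.41, 5.097 and 5.72. The 4 Sfrp genes in the fit did not pass the threshold.

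Of 9 genes of the R-spondin axis, which sets how many Wnt receptors a cell displays, 3 rose and 1 fell (1 and 1 with the block, 5 and 2 without normal 3). For this and the next lists, too, the shares of all genes called were 14.5%, 8.69% and 51.5%. The receptor-removing ligases Znrf3 and Rnf43 rose by 0.96 ± 0.19 and 1.58 ± 0.31 (adjusted p = 0.0223 and 0.0227, and 0.0561 and 0.0494 with the block), and the receptor gene Lgr6 by 2.71 ± 0.72 (adjusted p = 0.0453, and 0.0954 with the block). Lgr4 fell by 0.79 ± 0.18 (adjusted p = 0.0296). Without normal 3 Znrf3, Rnf43, Lgr6 and Lgr4 were at 1.02, 1.85, 3.30 and -0.88. Of 19 target genes of beta-catenin, 15 rose and 0 fell (5 and 0 with the block, 17 and 0 without normal 3), with the lowest adjusted p in Ephb3 (0.80 ± 0.15), Cd44 (1.90 ± 0.35) and Znrf3. Without normal 3 Ephb3 and Cd44 were at 0.84 and 2.10. Such targets are a description of these samples, since the list was chosen with results known. Of 15 genes of the polarity branch and related effectors, 1 rose and 1 fell (1 and 0 with the block, 5 and 1 without normal 3), no more than the share of all genes. They were the polarity gene Vangl2, which rose by 1.47 ± 0.35 (adjusted p = 0.0340), and the calcium-dependent kinase gene Camk2d, which fell by 0.88 ± 0.19 (adjusted p = 0.0264, and 0.0514 with the block). Without normal 3 they were at 1.75 and -0.99. The median difference of these lists was -0.01 for secretion, 0.08 for receptors, 0.88 for inhibitors, 0.96 for the R-spondin axis, 1.58 for targets and 0.27 for the polarity branch, beside 0.15 over all genes.

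**Figure D5:**
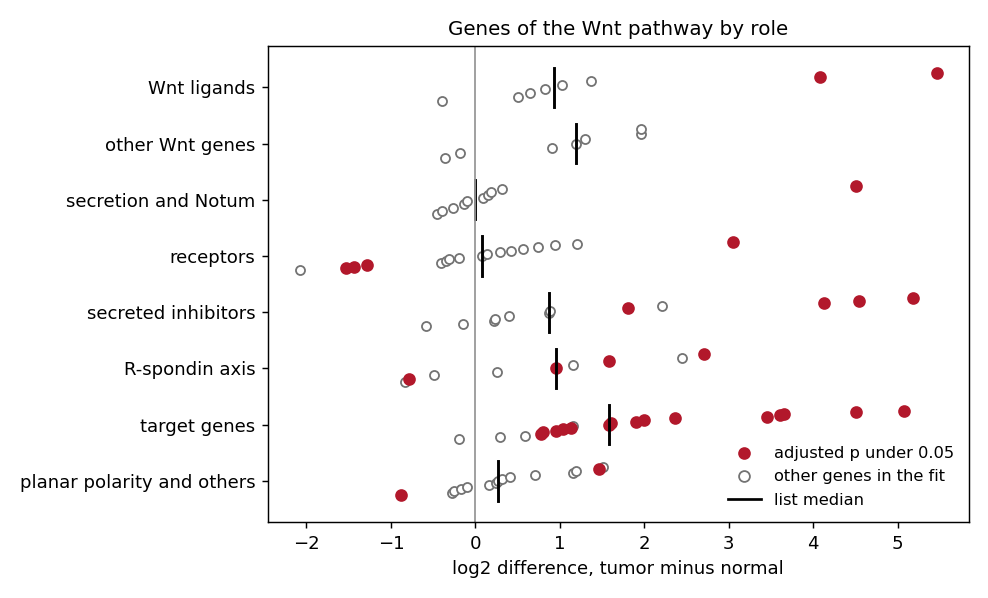
Log2 difference, tumor minus normal (horizontal axis), of every gene in the fit from 8 lists of the Wnt pathway, with filled points for adjusted p under 0.05, open points for other genes and a bar at each list's median. The medians ran from -0.01 in the secretion list to 1.58 in the target list, with 0.93 for the Wnt ligands.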

How the data were processed

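The 8 samples were grouped by title into 4 tumors and 4 normals. The deposited value table holds 1 log2 column per sample; it was quantile-normalised by the authors, as shown by the identical median and 75th percentile of its columns, and its log2 scale was taken from slopes of 0.891 to 1.06 against matched log2 scanner signals. Spot intensity in the scanner files was extracted, per the file headers, with Feature Extraction 9.5.1.1 (design 014868, probe coordinates on mm8), whereas the submitters' processing notes name version 10.1.1.1.

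A probe was kept when it reached the detection limit on at least 4 of 8 arrays. That limit, 5.59, was the median, over the 4 columns whose scanner file was identified, of the value under which 95% of dim probes lay (those that the scanner software did not mark as well above background). In normal 1, 55.6% of probes were marked well above background, against 73.2% to 82.8% in the other identified columns. The limit and the mark put 79.1% of probes on the same side in normal 1, against 93.7% to 99.2% in the others. The brightest kept probe stood for a gene. Genes were named from accessions or symbols through RefSeq genes of GRCm38.p6. Tumors and normals were compared by limma's moderated test (version 3.58.1, R 4.3.3, both directions), its p-values were adjusted over 21637 genes by the Benjamini-Hochberg method, and the script was tested on simulated data. With 4 arrays per group, the number of arrays limits the precision.

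Same-numbered samples deviated together from their group means (correlations 0.236, 0.356, 0.534 and 0.362 in pairs 1 to 4), which met the rule of over 0.1 in every pair; samples of different number ranged from -0.506 to 0.378, and tumors 1 and 4 correlated more with normals 3 and 2 than with their own number. The number, taken from the titles, was used as a block in an alternative. All ligands, and up to 3 called genes of each list and direction with the lowest adjusted p, are named. Ligands and lists were chosen with earlier results of these data known.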

Additional observations from a re-analysis of the deposited data

Results flagged for a closer look

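The groups of 4 values examined were each probe of a Wnt gene and each pathway gene named by rule, in tumors and in normals. Among these 78 groups, 9 held a sample far from the other 3. Chance gives about 1 in 20 for a single group. The groups share the same 8 samples and are not independent, so the count was not tested against that rate. In 7 of the 9 the outlying sample was normal 3. It was far above the other normals in Wnt10a (13.86, others 7.79 to 8.23), Wnt6 (12.69, others 9.08 to 9.38), Wnt16 (8.33, others 5.07 to 5.42), Fzd10 (10.74, others 7.26 to 7.43), Wif1 (13.65, others 8.23 to 9.08) and Rnf43 (15.30, others 14.10 to 14.28), and far below them in Fzd8 (8.12, others 9.17 to 9.32). Wnt4 was at 8.87 in tumor 4, with the other tumors at 7.36 to 7.44. Ephb3 was at 11.77 in normal 1, with the other normals at 12.14 to 12.19.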

How the results depend on the processing

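The count of ligands called higher was 2 and moved to 1 with the replicate block, and to 0 to 5 when 1 sample was left out (0 without any of tumors 1, 2 and 3 or normals 1, 2 and 4, 1 without tumor 4, 5 without normal 3). All genes called numbered 3147, 1881 with the replicate block, and 21 to 11136 when 1 sample was left out. Scanner values as filed called 0 ligands and 0 genes by limma, whether scaled to the 75th percentile, with normexp and quantile normalisation, or with the slide as a block, while 411, 509 and 304 genes had an unadjusted p under 0.05. The 4 arrays with an identified column, refitted from scanner values, also called 0 ligands and 0 genes (4124 at an unadjusted p under 0.05), with Wnt10a at 8.01 and Wnt6 at 5.53. Ligands called lower numbered 0 in every setting run. Scanner values as filed, in the same 3 forms, gave Wnt10a 0.80, 0.52 and 0.80 and Wnt6 0.51, 0.39 and 0.51, and reversed Wnt2 (-0.030, -0.11 and -0.030), Wnt5a (-0.076, -0.11 and -0.076) and Wnt5b (-0.0050, -0.031 and -0.0050). Wnt4 was reversed in the forms without normexp (0.17 each). Wnt2 was also reversed on the 4 identified arrays (-0.38), without tumor 4 (-0.05) and without normal 3, in a range of -0.15 to 1.04 over single samples left out. The causes were not tested. The fits as filed used other arrays under some labels, and the fit of identified arrays used fewer samples. Centring each sample on the median of its genes lowered the median difference of all genes to 0.02, against 0.15, and the mean of kept probes, no filter, values set to the limit, an intensity trend, single probes and centring left the count of ligands called higher between 2 and 3.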

Other observations

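A probe outside the 10 ligand genes reads a RIKEN clone whose description in the files names Wnt2b as its product. It read 9.87, 9.01, 9.84 and 9.11 in tumors, against 8.82, 6.42, 10.04 and 6.83 in normals. Normal 3 was the highest sample and the other normals were below every tumor, whereas the probe named Wnt2b was below the detection limit in every sample but tumor 2.

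In the scanner files, read under the sample each was filed with and relative to the 75th percentile of its array, Wnt10a was at 3.71, -1.98, -0.79 and -2.91 in tumors 1 to 4 and at -1.17, -3.83, -4.32 and 4.15 in normals 1 to 4. Wnt6 was at 2.77, -0.49, -0.34 and -1.37 in tumors and at 0.11, -2.27, -2.65 and 3.36 in normals. The 2 highest files for both genes were those under tumor 1 and normal 4, which are the files that match the value columns of tumor 1 and tumor 2. The files under tumors 2, 3 and 4 and normal 1 match no column, and their Wnt10a and Wnt6 values lay between those of the other files.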
